A study of Arabidopsis thaliana with 12 samples.

Results

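The wild-type baseline of this study is the set of arrays made from young rosette leaves of unmutated Arabidopsis thaliana, 3 of the 12 arrays in the series. The groups were bdg (allele bdg-2, a 7 bp deletion in the first exon of BDG), fdh (allele fdh-3940, a 2 bp insertion in the first exon of FDH), lcr (allele lcr-3P77, a transposon insertion in the 5′ UTR of LCR) and wild type Columbia-0 (WT), with 3 arrays each. All 4 groups carried the same treatment: plants stood on soil for 5.5 weeks in short days with 8 h of light and 16 h of dark, at 20°C by day and 18°C by night, and no agent was applied. Leaves measuring 2 mm to 1 cm were taken in the morning from 15 plants per sample, so each value is an average over plants, over leaves of different ages and over every cell type of the leaf. The labels name 3 biological replicates per group and 3 harvest rounds with 1 sample of each group, and do not say which replicate number belongs to which round. The 3 WT arrays were taken by their label alone. Their 22746 probe sets, without the 64 controls of the array maker, were ranked by the mean of the deposited log2 values over the 3 WT arrays, and 13513 of them are named here by 1 gene of the platform annotation.

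A young rosette leaf in short days is a photosynthetic organ that has not entered flowering. Its mesophyll cells are filled with chloroplasts, which capture light in the thylakoid membranes with antenna proteins and 2 photosystems, make ATP and NADPH, and fix CO2 in the Calvin cycle. The parts of this machinery come from both genomes of the cell: core subunits are encoded in the plastid DNA, and antenna proteins, many small subunits and the enzymes of the soluble pathways are encoded in the nucleus. The ATH1 array reads each gene with a set of short probes, so a value is a hybridization signal. Probe sets differ in how well they bind, and the order of genes given here is an order of signal, which is not an order of transcript number.

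The signal on the WT arrays had a floor and a broad upper part. The WT mean had a median of 4.62 on the log2 scale over all 22746 probe sets, with the middle part of the ranking between 2.56 (percentile 25) and 7.14 (percentile 75). Near the floor, defined as under 3 on all 3 WT arrays, lay 7619 probe sets, or 33.5%. The 3 control probe sets for bacterial tryptophan genes, which have no target in a leaf, read between 2.41 and 2.92 on the WT arrays, so values under 3 were not separated from background. At the upper end 1143 probe sets had a WT mean of at least 10 and 314 of at least 12. Of the 7619 probe sets near the floor in WT, 6730 (88.3%) were under 3 on all 9 mutant arrays as well, and 20 were above 5 on at least 3 mutant arrays. The limit separates no gap in the values: the highest array of the last probe set inside it read 2.9996 and that of the first one outside 3.0001.

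**Figure D1:**
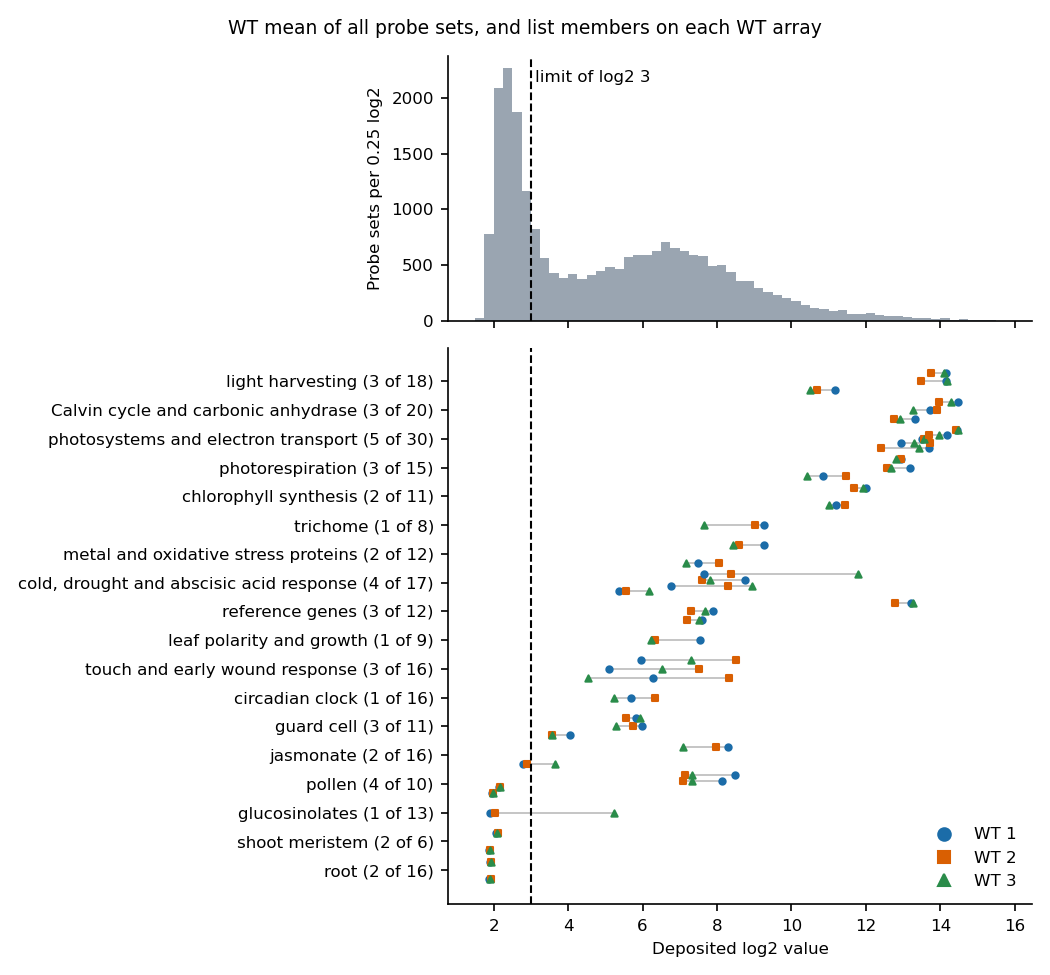
Above, the number of probe sets in each step of 0.25 of the WT mean (log2), and below, every named member of the gene lists on each of the 3 WT arrays (circle, square and triangle, joined by a line), with lists ordered by their median and the number of named members of all members given in brackets. The dashed line is the limit of log2 3: root and shoot meristem regulators lie left of it, and the photosynthesis lists lie at the right end.

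Genes of the photosynthetic apparatus led the named genes with the highest signal. The 40 named probe sets with the highest WT mean lay between 13.08 and 14.74, and the next named one read 13.07. They are spread over the first 107 ranks of all probe sets, and of the 40 probe sets with the highest mean regardless of name 14 are named here, so most of the very highest signals cannot be given a gene. Of the 40, 14 are encoded in the plastid genome. The replicates of these genes lay close together, with a median SD of 0.32 and a largest SD of 0.75 (rpl16, a protein of the plastid ribosome).

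The first places were held by the plastid ATP synthase, the enzyme that uses the proton gradient of the thylakoid to make ATP. Its beta subunit gene atpB read 14.68, 14.73 and 14.81 on WT replicates 1, 2 and 3, and its neighbour atpE, the epsilon subunit, read 14.38, 14.84 and 14.66. The plastid gene atpA, the alpha subunit, read 13.90, 14.31 and 14.13. The nuclear gene ATPC1, which supplies the gamma subunit of the same enzyme, averaged 13.55 ± 0.04 (SD, n = 3). Subunits from both genomes therefore stood in the top group. Among the other plastid genes there, petB, cytochrome b6 of the electron transport chain, averaged 14.14 ± 0.22, psaB, a reaction centre protein of photosystem I, 14.09 ± 0.32, and ndhI, a subunit of the NDH complex, 13.98 ± 0.45 (SD, n = 3 each).

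Nuclear genes of the light reactions followed closely. PSAE-1, a stromal subunit of photosystem I, read 14.45, 14.43 and 14.48, and with an SD of 0.03 it had the smallest spread of all named probe sets with a WT mean of at least 10. PSAN, the lumenal subunit of photosystem I, averaged 13.95 ± 0.24, PSBW of photosystem II 13.32 ± 0.39 and PSBY of photosystem II 13.18 ± 0.67 (SD, n = 3 each). All 5 named members of the list of photosystem and electron transport genes were thus above 13 (5 of 30 list members are named here). A pair of antenna genes of the minor complex CP29 stood at the same height, LHCB4.1 with 14.00 ± 0.22 and LHCB4.2 with 13.93 ± 0.39, whereas the third, LHCB4.3, read 11.18, 10.69 and 10.50. Its values did not overlap with those of either of the others. AT4G01150 (CURT1A), which bends the thylakoid membrane, read 13.23, 13.32 and 13.32.

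Carbon metabolism and pigment synthesis came next. RCA, rubisco activase, which frees the active sites of rubisco, read 14.47, 13.97 and 14.30. SBPASE and PRK, enzymes that regenerate the CO2 acceptor in the Calvin cycle, read 13.73, 13.90 and 13.26 (SBPASE) and 13.33, 12.75 and 12.92 (PRK). These are the 3 named members of a list of 20. In photorespiration, which recycles the product that rubisco forms with oxygen, HPR (hydroxypyruvate reductase) read 12.95, 12.95 and 12.80, AT1G11860 averaged 12.81 ± 0.34 and AT1G80380 10.91 ± 0.53. AT1G74470, a geranylgeranyl reductase that makes the phytol tail of chlorophyll, read 14.49, 14.21 and 13.90. Of the 2 named members of the chlorophyll synthesis list, CHLM, a magnesium-protoporphyrin methyltransferase, averaged 11.87 ± 0.17 and PORB, a light-dependent protochlorophyllide reductase, 11.22 ± 0.22.

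Besides further plastid genes, the rest of the top 40 were genes for which no chloroplast role is given here. GAPC2, a cytosolic glyceraldehyde-3-phosphate dehydrogenase of glycolysis, closed the group with 13.20, 12.77 and 13.27. PRXR1, a peroxidase, averaged 13.15 ± 0.43, and ECS1 read 14.21, 14.26 and 13.97. Another 12 of the 40 are known here by locus only and are given no role, among them AT3G60245 with a mean of 14.05 ± 0.28 and AT1G09310 with 13.17 ± 0.45. These 12 loci may include genes of chloroplast proteins. The other named reference genes lay far lower than GAPC2, AT2G28390 at 7.62 ± 0.31 and AT4G34270 at 7.44 ± 0.21 (SD, n = 3 each).

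All 69 named probe sets of the plastid genome were above the floor, from rps14 at 3.54 ± 0.80 to atpB, with a median WT mean of 11.88, and 33 of them were at 12 or more. Their replicates lay further apart than those of other genes with high signal. The median SD was 0.69, against 0.38 for all probe sets with a WT mean of at least 10, and 19 of the 69 had an SD over 1. Most of it followed WT replicate 2: 52 of the 69 had their highest value there, and 49 had their lowest value on WT replicate 1. Over all probe sets WT replicate 2 was the highest of the WT arrays for 54.4% and WT replicate 1 the lowest for 51.9%.

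By role, the 6 ATP synthase genes had a median of 13.36, the 5 genes of photosystem I 12.67, the 7 genes of the large ribosomal subunit 12.44, the 8 of the small subunit 11.86, the 15 of photosystem II 11.82, the 10 NDH genes 11.42, the 4 genes of the plastid RNA polymerase 11.29 and the 6 cytochrome b6f genes 9.79. Members of a group, and even neighbours on the plastid genome, moved differently between the arrays. The 4 ATP synthase genes atpI, atpH, atpF and atpA lie side by side. On WT replicates 1, 2 and 3, atpH (the ring subunit) read 12.998, 10.97 and 13.85 and atpF (a stalk subunit) 12.64, 11.52 and 13.60, so both were lowest on replicate 2, where atpA was highest. The large subunit of rubisco, rbcL, read 10.81, 9.71 and 9.63 and was highest on replicate 1. The largest gap belonged to psbN, a photosystem II assembly factor, which read 8.00, 11.81 and 7.87. At the low end ndhF read 2.98, 6.51 and 2.87 and petD, next to petB, 3.03, 5.93 and 2.66, so both were clear of the floor on replicate 2 alone.

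**Figure D2:**
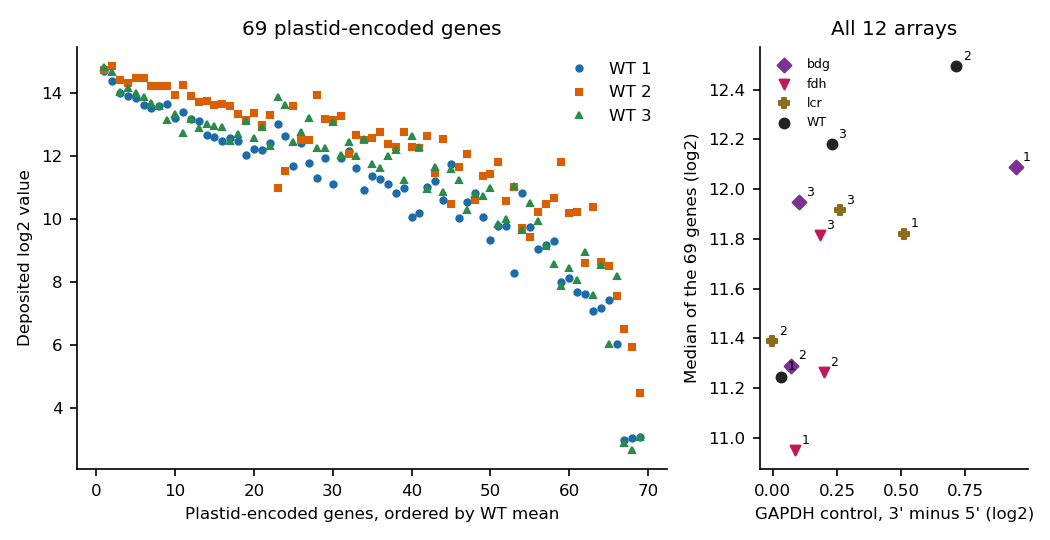
Left, the deposited log2 value of each of the 69 plastid-encoded genes on the 3 WT arrays, ordered by WT mean, and right, for each of the 12 arrays (numbered by replicate), the median over these genes against the difference between the 3′ and the 5′ control probe set of GAPDH. WT replicate 2 lies above the other WT arrays for 52 of the 69 genes, and has the highest median (12.49).

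The same array stood apart in a control for RNA integrity. The array maker's probe sets at the 3′ and the 5′ end of GAPDH differ more when transcripts are shortened. Among the 9 mutant arrays the GAPDH difference was above 0.5 on bdg replicate 1 (0.95) and lcr replicate 1 (0.51) and at most 0.26 on the other 7, and on WT replicates 1, 2 and 3 it was 0.03, 0.71 and 0.23. The corresponding actin difference on the WT arrays was 1.01, 2.07 and 0.33. The median over the 69 plastid genes was 11.25, 12.49 and 12.18 on WT replicates 1, 2 and 3. On the mutant replicates 1, 2 and 3 it was 12.09, 11.29 and 11.95 in bdg, 10.95, 11.26 and 11.82 in fdh and 11.82, 11.39 and 11.92 in lcr. Replicate 3, with GAPDH differences of 0.10 in bdg, 0.18 in fdh and 0.26 in lcr, was thus the highest of its group in fdh and lcr. The part of RNA integrity in the plastid values was not tested. The methods list WT replicate 2 and bdg replicate 1 as having a slightly disturbed GAPDH ratio while passing the quality control.

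Most of the few list members named here for organs other than the leaf were at the floor. They do not show whether other genes of these organs gave a signal. Both named members of the root list, EXPA7 and EXPA18, which are root hair expansins, lay at the floor with 1.91 ± 0.02 and 1.92 ± 0.02, as did CLV3 (2.09 ± 0.02) and UFO (1.89 ± 0.02), regulators of the shoot and floral meristem (SD, n = 3 each). Of the 4 named members of the pollen list, MGH3, a histone of the male germ line, and ACT12, an actin, read 2.16 ± 0.02 and 1.98 ± 0.02. The other pair of that list was well above the floor: ACT11, also an actin, read 8.48, 7.14 and 7.33 and TUA1, an alpha-tubulin, 8.13, 7.09 and 7.34. The lists of floral organ, seed, vascular, cuticle and lipid transfer protein genes have no member named here, so floral organ and seed markers could not be read.

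Regulators of cell types within the leaf had WT means from 3.73 (MUTE) to 8.64 (TRY). SPCH, MUTE and FMA act one after the other in the stomatal lineage, from its entry through the guard mother cell to the guard cell. SPCH read 5.81, 5.55 and 5.93, FMA 5.99, 5.75 and 5.28, and MUTE 4.04, 3.56 and 3.58, and none of them was near the floor by the limit used. TRY, an inhibitor of leaf hair initiation and next to SPCH on the chromosome, read 9.25, 9.01 and 7.65. YAB3, which marks the lower side of young leaves, read 7.54, 6.34 and 6.22. In such whole leaf samples fewer cells of a type and less RNA per cell cannot be told apart.

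Gene families differed in how many of their members gave a signal. Symbols that share at least 3 leading letters before a number defined families, and 27 families of at least 8 named probe sets (382 in all) are given here. Over all named probe sets 5106 of 13513 (37.8%) were near the floor.

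The lowest median, 2.38, was that of TET, the tetraspanins, a family of membrane proteins, with 10 of 15 near the floor. The remaining 5 were far above it. TET8, known from extracellular vesicles, read 9.72, 10.15 and 7.45, TET7 7.69, 8.35 and 8.12 and TET10 7.78, 8.62 and 7.04. TET3 and TET2 followed with means of 6.44 ± 0.72 and 5.79 ± 0.34, and the next member, TET6, read 2.45 ± 0.05, so no member lay between 2.45 and 5.79.

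Other families, chosen after their values were seen, varied in this. CHR had 5 of 9 near the floor and 0 above 7, with a highest mean of 6.66. OTP had 3 of 8 near the floor (37.5%, close to the share of all named probe sets), with a highest mean of 3.95. Of 14 SWEET sugar transporters 7 were near the floor. SWEET1, a glucose carrier, read 9.82, 8.60 and 9.09, SWEET11, which exports sucrose towards the phloem, 8.94, 7.67 and 8.05, and SWEET17, a fructose carrier of the vacuole, 6.94, 6.91 and 8.30. At the floor were SWEET8 (1.90 ± 0.02), known from pollen, and SWEET9 (1.97 ± 0.02), known from nectaries. Of 9 XTH genes, enzymes that remodel xyloglucan in the cell wall, 5 were near the floor, whereas XTH32 read 10.38, 9.82 and 9.97 and XTH16 8.52, 8.02 and 7.67. Of 47 UGT glycosyltransferases 20 were near the floor (42.6%, close to the share of all named probe sets) and 8 were above 7, led by UGT78D1, which attaches rhamnose to flavonols, with 11.39, 10.94 and 11.02. The LCR family of small cysteine-rich proteins, which is not related to the mutated gene LCR, had 5 of 8 near the floor, whereas LCR68 averaged 9.76 ± 0.59 and LCR69 8.87 ± 0.71.

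At the other end the RPS symbols had the highest median, 11.86, and all 8 of them are plastid ribosomal proteins. The second highest, ALDH, aldehyde dehydrogenases, had a median of 8.83 with 0 of 8 near the floor, from ALDH22A1 (6.77 ± 0.49) to ALDH11A3 (11.31 ± 0.35).

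**Figure D3:**
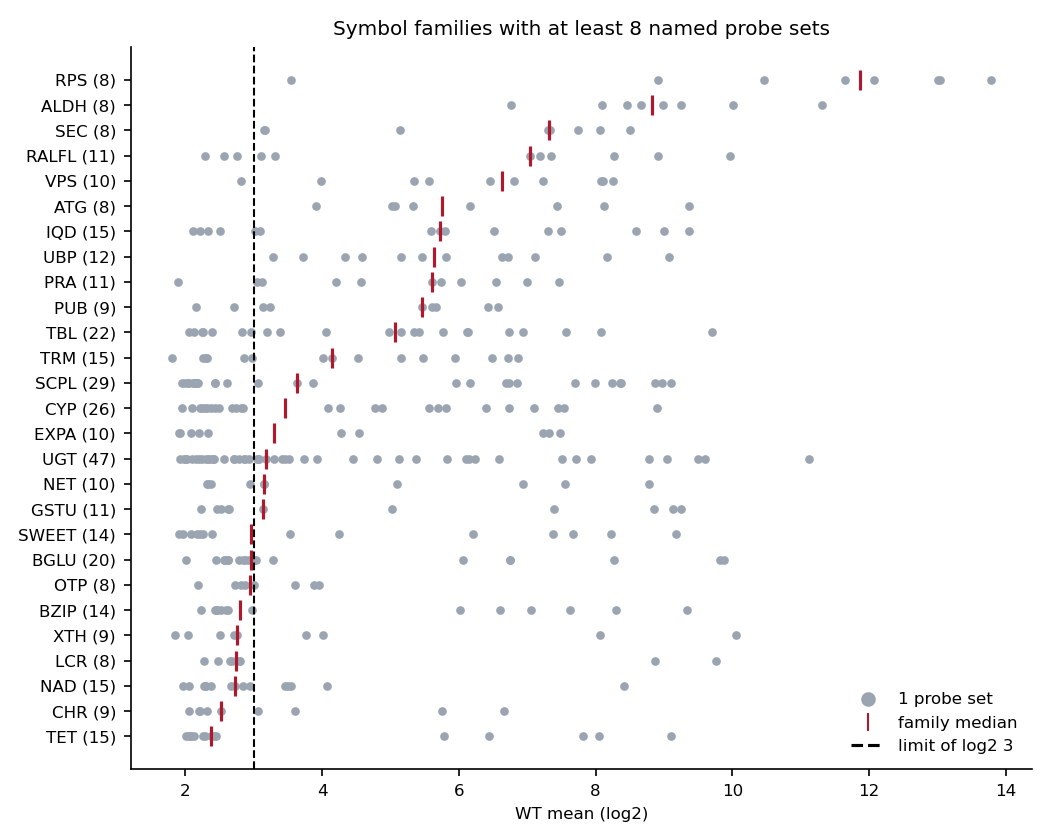
WT mean (log2) of every named probe set (grey points) in 27 symbol families of at least 8 named probe sets, with the family median (red bar), the number of probe sets in brackets and the limit of log2 3 (dashed). TET crowds left of the limit with a few members far to the right, and the plastid RPS genes lie at the right end.

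Stress-responsive genes of the cold and touch lists had WT means from 5.70 (LTI30) to 9.27 (COR15A) and differed between the WT arrays. Of the list of cold, drought and abscisic acid genes 4 of 17 are named. COR15A and COR15B, neighbouring genes for proteins that protect chloroplast membranes in the cold, read 7.66, 8.38 and 11.78 and 6.76, 8.31 and 8.93 on WT replicates 1, 2 and 3. COR47, a dehydrin, read 8.75, 7.59 and 7.82, and LTI30, another dehydrin, 5.36, 5.56 and 6.16. The 3 named members of the touch and early wound list followed another order: WRKY53, a transcription factor of senescence and defence, read 6.27, 8.32 and 4.53, STZ (ZAT10), a zinc finger repressor, 5.95, 8.52 and 7.30, and CML38, a calmodulin-like protein, 5.10, 7.52 and 6.52. They were thus highest on replicate 2, COR15A, COR15B and LTI30 on replicate 3 and COR47 on replicate 1. Of the clock list only GI, a clock component with a peak towards evening, is named, and it read 5.70, 6.33 and 5.23.

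The genes that varied most between the WT arrays divided the arrays in a recurring way. The median SD was 0.19 in bdg, 0.12 in fdh, 0.18 in lcr and 0.21 in WT, and an SD over 1 was found for 496, 347, 465 and 915 probe sets in these groups, or 2.18%, 1.53%, 2.04% and 4.02%. WT thus held more widely spread probe sets than any mutant. For each probe set the array farther from the middle value was taken as the one standing apart. In 477 of the 915 (52.1%) it was WT replicate 3, which stood apart from the other pair, in 235 above it and in 242 below it, whereas over all probe sets replicate 3 stood apart in 11.1% above and in 9.47% below. Of the 100 probe sets with the largest SD (all at 1.88 or more), replicate 3 stood above in 43 and below in 33.

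The 30 named probe sets with the largest SD had SDs between 1.93 and 3.27, and the next one outside read 1.93. Those high on WT replicate 3 included a pair of enzymes of anthocyanin synthesis: DFR, dihydroflavonol reductase, read 2.06, 2.37 and 6.57, and UF3GT, which glycosylates anthocyanins, 2.55, 2.84 and 6.40. Both were at the floor on the other WT arrays. AT4G17470 read 3.15, 3.57 and 8.69, AT1G70820 5.04, 6.95 and 9.64 and AT1G52000 6.68, 7.98 and 10.80. Outside these 30, with an SD of 1.90, the glucosinolate list member BCAT4 was also high on replicate 3. BCAT4, which starts the synthesis of methionine-derived glucosinolates, read 1.90, 2.03 and 5.25.

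Other genes were low on the same array. EXLA1, an expansin-like protein of the cell wall, read 5.58, 6.86 and 2.41. PYE, the iron deficiency regulator POPEYE, read 9.04, 7.37 and 4.75. Loci with no role given here behaved likewise, such as AT2G20560 with 8.12, 8.11 and 3.93, AT4G30470 with 8.94, 9.59 and 5.36 and AT2G27420 with 9.85, 9.53 and 5.93. High on WT replicate 2 alone were AT2G07741 with 2.70, 8.81 and 3.76, one probe set of AT4G16980 with 5.24, 9.51 and 5.05, psbN and ndhF. Low on WT replicate 1 were AT3G15450 with 3.26, 6.88 and 6.28 and AT1G49500 with 5.38, 7.84 and 9.20.

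**Figure D4:**
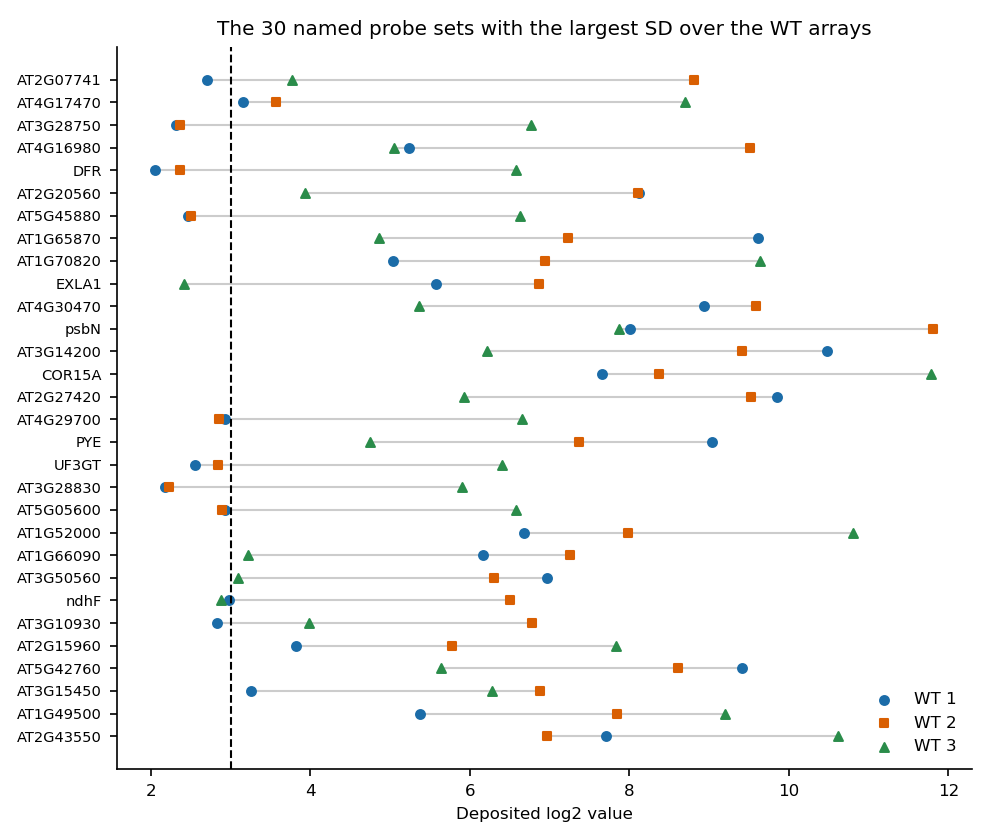
Deposited log2 values of the 30 named probe sets with the largest SD over the WT arrays, 1 row each, with a symbol per WT replicate and the limit of log2 3 dashed. Replicate 3 (triangles) lies at one end of most rows, for instance DFR at 6.57 and EXLA1 at 2.41, and replicate 2 (squares) at the upper end for AT2G07741, AT4G16980, psbN and ndhF.

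A further 17 of the 100 most variable probe sets can be named through a supplementary table of the study, which lists loci and probe sets of genes it found changed in the mutants, so these names are a biased choice and fall outside the naming rule. The largest SD among them belonged to NATA1, which stood apart on WT replicate 3. NATA1, an N-acetyltransferase, read 3.26, 4.60 and 9.999, CORI3, a cystine lyase, 6.46, 6.73 and 11.50 and TAT3, a tyrosine aminotransferase, 3.56, 5.42 and 8.67. The starch-degrading enzyme BAM5 read 2.9998, 3.44 and 9.07, and MYBL2, a repressor of anthocyanin synthesis, 2.54, 3.999 and 6.79. The 2 named members of the list for jasmonate, the wound and defence hormone, did not share one order, since PDF1.2, a defensin, read 8.31, 7.97 and 7.09 and THI2.1, a thionin, 2.79, 2.89 and 3.65. Low on WT replicate 3 were DIN10, a dark-induced raffinose synthase gene, with 7.45, 7.20 and 3.33, PHI-1 with 6.85, 6.05 and 2.53 and PP2-A5, a phloem protein, with 5.68, 7.72 and 3.12. The lipid transfer protein genes stood apart on WT replicate 1, with 2.18, 8.42 and 6.595 for LTP3, 2.49, 7.73 and 5.91 for its neighbour LTP4 and 4.51, 9.27 and 7.20 for LTP2. By array, 7 of the 17 stood apart as high on WT replicate 3, 4 as low on WT replicate 3, 4 as low on WT replicate 1 and 2 as high on WT replicate 2.

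The mutant arrays, which had no part in choosing these genes, carried the same division. Of the 235 probe sets with WT replicate 3 above the other pair, replicate 3 was the highest array of its own group for 215 in bdg (91.5%), 174 in fdh (74.0%) and 193 in lcr (82.1%), against 24.5%, 27.8% and 25% of all probe sets. Of the 242 with WT replicate 3 below, replicate 3 was the lowest for 223 in bdg (92.1%), 213 in fdh (88.0%) and 225 in lcr (93.0%), against 53.0%, 41.3% and 35.2% of all. Genes showed it one by one. AT1G70820 read 6.34, 5.30 and 9.28 in bdg replicates 1, 2 and 3, 6.82, 7.05 and 9.81 in fdh and 6.36, 6.53 and 9.68 in lcr, beside 5.04, 6.95 and 9.64 in WT. PYE read 7.47, 7.32 and 3.69 in bdg, 4.82, 4.94 and 3.71 in fdh and 6.45, 4.88 and 4.01 in lcr, beside 9.04, 7.37 and 4.75 in WT. The labels give no feature that sets the replicates numbered 3 apart, and which part harvest round had in this was not tested.

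The probe sets marked by WT replicate 2 followed other arrays. Of the 167 with replicate 2 above, 157 (94.0%) were above the group mean on bdg replicate 1 and 142 (85.0%) on lcr replicate 1, against 61.9% and 33.1% of all probe sets. Of the 130 with replicate 2 below, 129 (99.2%) were below the group mean on bdg replicate 1 and 122 (93.8%) on lcr replicate 1, against 38.1% and 66.9% of all. These are the mutant arrays with the larger GAPDH differences given above. The part of RNA integrity in the values of these probe sets was not tested. In fdh, 59.9% of the 167 were above the group mean on replicate 1, 65.9% on replicate 2 and 30.5% on replicate 3. Over all probe sets these shares were 34.1%, 66.2% and 34.5%. The GAPDH differences of these fdh arrays were 0.09, 0.20 and 0.18. AT2G07741 read 8.04, 3.41 and 3.98 in bdg, 3.53, 2.68 and 3.98 in fdh and 6.13, 4.199 and 3.68 in lcr, beside 2.70, 8.81 and 3.76 in WT.

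**Figure D5:**
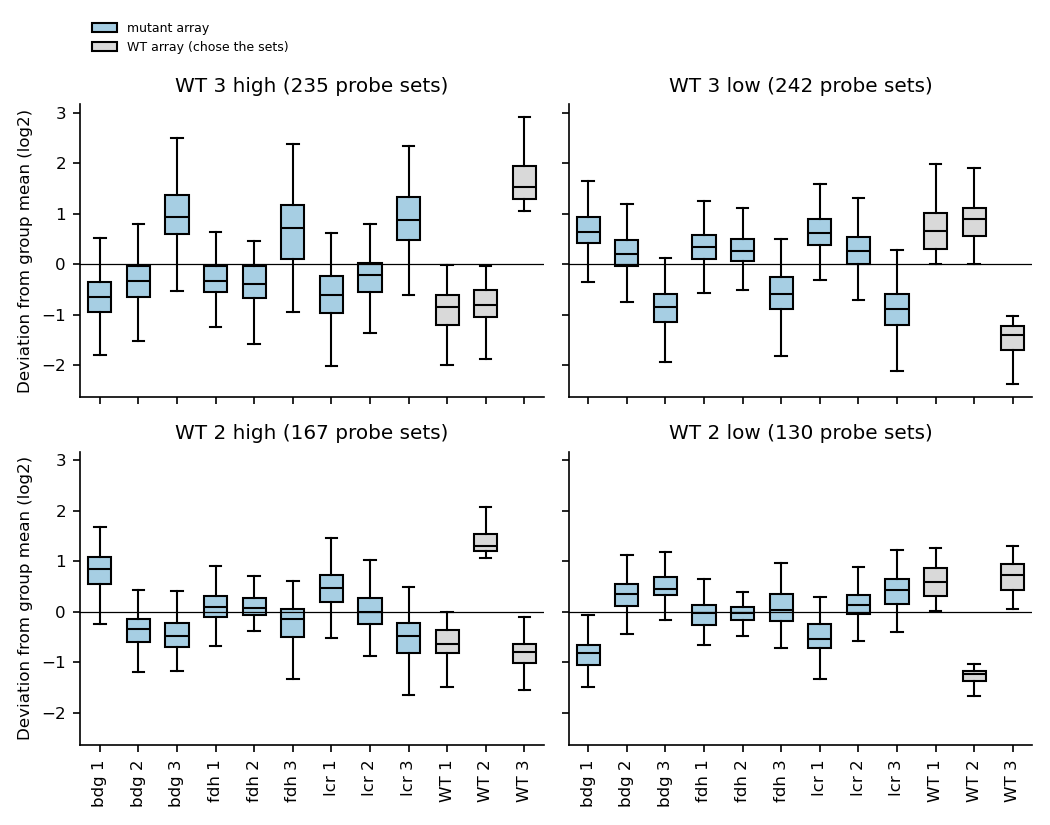
Deviation from the mean of the own group (log2) on all 12 arrays for probe sets with an SD over 1 in WT, in 4 panels for WT replicate 3 above or below and WT replicate 2 above or below the other WT arrays (boxes: quartiles and median, whiskers: up to 1.5 times the box, points outside not drawn). The grey WT boxes show the choice itself, and the blue mutant boxes are independent of it: replicate 3 of bdg, fdh and lcr follows WT replicate 3, with medians of 0.94, 0.71 and 0.87 in the first panel.

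Not every gene of WT replicate 3 did so. DFR read 2.26, 2.295 and 3.11 in bdg, 5.29, 2.31 and 4.07 in fdh and 3.17, 2.06 and 2.43 in lcr, beside 2.06, 2.37 and 6.57 in WT, so its highest array was replicate 1 in fdh and in lcr. AT3G28750 read 2.35, 2.35 and 6.74 in bdg and 2.32, 2.37 and 6.77 in WT, and at most 2.39 on the 6 fdh and lcr arrays. AT5G45880 read 6.29 on bdg replicate 3 and 6.63 on WT replicate 3. Its other 10 arrays were near the floor, and AT3G28830, AT3G28790 and AT3G01270 behaved likewise, with 4.62, 3.87 and 4.82 on bdg replicate 3 and 5.90, 5.21 and 5.51 on WT replicate 3. AT3G28750, AT3G28790 and AT3G28830 lie near each other on the chromosome, with 4 and 2 protein-coding genes between them. In total 30 probe sets were above 3 on bdg replicate 3 and WT replicate 3 and under 3 on the other 10 arrays, and 16 of them were above 4 on both. Of the 54 pairs of arrays from different groups, lcr replicate 2 and WT replicate 2 shared more probe sets above 3 in this way, 55, and bdg replicate 1 and WT replicate 2 shared 19. With both arrays above 4, no pair other than bdg replicate 3 and WT replicate 3 had more than 1.

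How the mutants stood against this baseline was read only for members of the gene lists and for the plastid-encoded genes. Genes chosen only by the rank of their WT values were left out, since they share them with the comparison. Some list members and plastid genes also stood in those rankings, such as PSAE-1, RCA and COR15A. Their differences share the WT values in the same way. Across all 22746 probe sets limma called 146 (0.642%) higher and 41 (0.18%) lower in the mean of the 3 mutants than in WT at a Benjamini-Hochberg adjusted p under 0.05. Of the 45 list members with a named probe set 2 were higher and 0 lower, with a median log2 difference of 0.00 for the list members and 0.00 for all probe sets. Both belong to the list of metal and oxidative stress proteins, of which 2 of 12 members are named.

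MT1C, a metallothionein, a small cysteine-rich metal-binding protein, read 11.37, 12.41 and 10.20 in bdg, 10.30, 10.69 and 10.61 in fdh and 12.54, 12.17 and 11.04 in lcr, against 7.50, 8.07 and 7.17 in WT. All 9 mutant arrays were above all 3 WT arrays, and the log2 difference was 3.68 ± 0.45 (SE, limma adjusted p = 0.0095). CCS, the chaperone that loads copper into superoxide dismutase, read 9.49, 10.20 and 9.92 in bdg, 10.24, 10.22 and 9.81 in fdh and 9.87, 10.002 and 9.83 in lcr, against 9.26, 8.60 and 8.43 in WT. Its groups did not overlap either, and the log2 difference was 1.19 ± 0.20 (SE, limma adjusted p = 0.0327). Without WT replicate 1 the adjusted p of MT1C was 0.0541, and without WT replicate 2 that of CCS was 0.13. The call of MT1C was lost in 1 of 18 alternative limma fits and that of CCS in 11 of 18, with adjusted p between 0.0127 and 0.13. Rank Product, another method, which called 745 probe sets higher, called both.

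The photosynthesis lists passed the threshold in neither direction: 0 of 3 antenna genes, 0 of 5 photosystem genes, 0 of 3 Calvin cycle genes, 0 of 3 photorespiration genes and 0 of 2 chlorophyll synthesis genes were called, and neither were any of the 69 plastid genes. Of all probe sets only 0.642% were called higher and 0.18% lower, so 0 calls do not set such small groups apart. PSAE-1 had a log2 difference of 0.01 and RCA of -0.04. LHCB4.3 averaged 10.68 in bdg, 9.88 in fdh and 9.70 in lcr, against 10.79 in WT (limma adjusted p = 0.282). No named member of the cold, drought and abscisic acid list or of the touch and early wound list was called either. The log2 difference was 1.45 ± 0.93 for COR15A (SE, limma adjusted p = 0.787), 1.96 ± 0.82 for WRKY53 (SE, limma adjusted p = 0.485) and 1.79 ± 0.78 for STZ (SE, limma adjusted p = 0.522). The spread of these genes between the WT arrays enters the SE, so the missing calls do not show that they were unchanged. WT replicate 3 alone, at 11.78, was above 7 of the 9 mutant arrays for COR15A, and WRKY53 on WT replicate 2, at 8.32, was above 4 of them. COR47 and LTI30 were higher on every fdh and lcr array than on any WT array, but not on bdg replicate 1 (7.75 and 5.27). Their adjusted p by limma was 0.172 and 0.36. The mean of the mutants also joins unlike groups: STZ averaged 6.92 in bdg, 11.02 in fdh and 9.18 in lcr, against 7.26 in WT.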

How the data were processed

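RNA of young rosette leaves of 12 samples (3 each of bdg, fdh, lcr and WT) was labelled with biotin and hybridized to Affymetrix ATH1 arrays, 1 per sample. The authors deposited log2 expression values per probe set, made with GCRMA (its version is not given in the sources used here), which corrects background by probe sequence, normalizes quantiles over arrays and summarizes probes. Values near the floor are therefore compressed, and a change there is understated. No replicates were pooled. Arrays give no depth, and their number limits the precision.

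The values were used as deposited, without a filter. Levels, counts under log2 3 and SDs over the 3 WT arrays are descriptions with no test. The mutants (mean of bdg, fdh and lcr) were compared with WT in R 4.3.3 with limma 3.58.1, fitting 4 group means to all 12 arrays with no replicate block and adjusting p over 22746 probe sets by Benjamini-Hochberg. limma and Rank Product, an alternative over 27 ratios with 100 permutations, were tested on simulated data. The labels call the samples biological replicates, each from 15 plants. Gene lists, members and questions were chosen with earlier results of these data known.

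Probe sets were named where the platform annotation gives 1 gene (13513, of which 77 had no match in RefSeq TAIR10.1, and 503 with several genes were not named). Named genes are the 40 with the highest WT mean, the 30 with the largest WT SD, the highest, lowest and called members of each list, and the families with the lowest and highest median and the largest share near the floor. Some families that this rule takes in are not reported here. A supplementary table of the study paired 235 more probe sets with a locus through identical entries (199 of 200 checkable pairs match the annotation). Of 374 list genes, 45 are named, in 18 of 31 lists.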

Additional observations from a re-analysis of the deposited data

How the results depend on the processing

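The named top 40 kept 35 to 40 members under a median, an unlogged mean, a second quantile normalization and the omission of any WT array. Of the recomputed WT means 778 moved by less than their SD and 2 by more (PSAE-1 to 14.42 and AT4G01150 to 13.35 after the second normalization). A median or the omission of 1 array cannot move a mean of 3 values by its SD. Only the unlogged mean and the second normalization could therefore show such a shift. A limit of 2.5 put 4699 probe sets near the floor instead of 7619. The count with an SD over 1 in WT was 900 to 1503 with an array left out and highest without replicate 1. Its share marked by replicate 3, and the shares of mutant arrays that followed, stayed within 1.5 times under a second normalization and with WT means of at least 5, both chosen after seeing the data.

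Of the calls against WT, those higher in the mutants numbered 146, but 254 with only probe sets above 5 on at least 3 arrays, 93 with 2 groups, 745 by Rank Product, 90 without WT replicate 2 and bdg replicate 1 (chosen after seeing the data) and 65 to 195 with an array left out (65 without WT replicate 1, 97 without WT replicate 2 and 90 without fdh replicate 2). Those lower numbered 41, but 23 with a trend in the prior variance and 20 to 59 with an array left out (20 without WT replicate 1 or fdh replicate 2, and 24 to 27 without fdh replicate 1 or any bdg or lcr array). With the replicate number as a block 202 were higher and 57 lower. Deviations from group means correlated between -0.36 and 0.725 for same-numbered arrays of a mutant and WT, and between 0.11 and 0.65 for those of different mutants. WT replicate 2 correlated best with bdg replicate 1 (0.74) and WT replicate 1 with bdg replicate 2 (0.58). Not every same-numbered pair was above 0.1, so the numbers are not taken to pair the samples. The adjusted p of CCS was above 0.05 in 11 of 18 alternatives (0.0522 with the block) and that of MT1C in 1 of 18. The causes were not tested.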

Other observations

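Some genes are read by more than 1 named probe set, and these did not always give the same level. Over 144 loci with at least 2 named probe sets the gap between the highest and the lowest WT mean had a median of 1.46, and 31 loci had a gap over 3. The widest was that of SDH2-1, an iron-sulphur subunit of respiratory complex II, with 8.42 on one probe set and 1.99 on the other. AT4G16980 read 13.19, 13.34 and 12.52 on WT replicates 1, 2 and 3 with one probe set and 5.24, 9.51 and 5.05 with the other, so its place among the most variable genes rests on 1 of its 2 probe sets.

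Among named probe sets with a WT mean of at least 10, the steadiest after PSAE-1 were AT1G21065 (10.60 ± 0.03), AT3G08740 (11.98 ± 0.04) and ATPC1 (13.55 ± 0.04; SD, n = 3 each). Probe sets with a WT mean under 5 had a median SD of 0.05, against 0.41 between 5 and 10.

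An expression confined to 1 WT array was most common on replicate 3. Of 28 probe sets under 3 on a pair of WT arrays and above 5 on the third, 22 were above 5 on replicate 3, 6 on replicate 2 and 0 on replicate 1. JAL23, a jacalin-related lectin, read 2.66, 2.80 and 5.95, and CSLA01, a cellulose synthase-like enzyme, 2.16, 2.18 and 5.40.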
